A study of Mus musculus with 6 samples.

Results

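The 10 genes described here carry the transcriptional arm of the integrated stress response, namely Atf4, its relatives Atf5 and Atf3, Ddit3 (encoding CHOP), the C/EBP factors Cebpb and Cebpg, and the stress-induced regulators Trib3, Ppp1r15a (encoding GADD34), Sesn2 and Ddit4 (encoding REDD1). They were found by gene symbol and made up 10 of the 27179 rows of the table for B16F10 cells, a mouse melanoma cell line of the melanocyte lineage that is used as a single-line model. Wild-type B16F10 cells had been cultured for 6 h with 0.01% olive oil (OLO, 3 samples) or 0.01% ozonated olive oil (OZO, 3 samples), and their RNA was sequenced. OLO served as the control for the oil itself, so every library came from oil-treated cells, and untreated cells were not analysed here. The labels do not say whether samples of a group were separate cultures, and the paper describes the sequenced samples as independent experiments.

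All levels below are the authors' averages of log2 CPM (counts per 1000000 reads) over the 6 libraries of both oils. An average over both oils holds no information on a difference between OZO and OLO, and it has no replicate error, so no gene is described here as raised or lowered by a treatment and no test was made. The spread between the libraries is not known from such an average, so the orders of levels given below have no error attached, and neighbouring genes may change places within that spread. The unit was read from the name of the column, the methods and the lowest value, which all rows without reads share. On this reading the average library held 19641946 reads after scaling (a geometric mean), and 1 CPM stood for 19.6 reads per library.

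The integrated stress response begins when a kinase that senses a stress (misfolded protein, lack of amino acids, lack of haem or viral RNA) phosphorylates the translation initiation factor eIF2. Most translation then slows, whereas the Atf4 mRNA, which carries short reading frames upstream of its own, is translated more, and the ATF4 protein switches on genes of amino acid supply and stress defence. Ddit3, Atf3, Trib3, Sesn2 and Ppp1r15a are known targets of the pathway, and several of them close feedback loops, since GADD34 brings protein phosphatase 1 to eIF2 and TRIB3 binds ATF4 and restrains it. In melanoma the pathway is known for its link to nutrient limitation and to changes of cell state. The ATF4 target Chac1 degrades glutathione, and Slc7a11 imports cystine, which ties the pathway to the glutathione supply that protects cells from ferroptosis.

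ATF4 and its partners bind a composite element, the C/EBP-ATF response element (CARE), and the related factors bind the cyclic AMP response element (CRE) or the AP-1 element. Promoter windows of RefSeq (GRCm38.p6) from 250 bases before to 50 bases after each transcript start were available for all 10 genes, as 11 windows because Atf5 had 2. The windows of Atf3, Trib3, Ppp1r15a and Ddit3 are shown because they hold the long forms of these elements. Each is written 5' to 3' on the strand of its gene, from 250 bases before the start to the base at position 30, and capitals mark the CARE core (TGATGNAA, or its reverse complement), the full CRE (TGACGTCA), the short CRE core (TGACG, or its reverse complement) and the AP-1 element (TGANTCA). The windows lie at chr1:191183304-191183583 (minus strand) for Atf3, chr2:152344031-152344310 (minus strand) for Trib3, chr7:45526239-45526518 (minus strand) for Ppp1r15a and chr10:127290543-127290822 (plus strand) for Ddit3.
Atf3: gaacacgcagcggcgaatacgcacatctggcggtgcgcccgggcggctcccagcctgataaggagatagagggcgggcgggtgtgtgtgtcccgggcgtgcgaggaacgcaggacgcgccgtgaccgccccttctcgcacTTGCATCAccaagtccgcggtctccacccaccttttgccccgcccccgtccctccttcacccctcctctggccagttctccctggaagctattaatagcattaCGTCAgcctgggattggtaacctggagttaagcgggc
Trib3: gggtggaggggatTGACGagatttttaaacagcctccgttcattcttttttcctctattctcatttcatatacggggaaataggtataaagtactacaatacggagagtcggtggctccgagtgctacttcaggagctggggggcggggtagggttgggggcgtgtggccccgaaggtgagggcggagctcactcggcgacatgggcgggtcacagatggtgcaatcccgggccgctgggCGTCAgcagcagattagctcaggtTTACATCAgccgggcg
Ppp1r15a: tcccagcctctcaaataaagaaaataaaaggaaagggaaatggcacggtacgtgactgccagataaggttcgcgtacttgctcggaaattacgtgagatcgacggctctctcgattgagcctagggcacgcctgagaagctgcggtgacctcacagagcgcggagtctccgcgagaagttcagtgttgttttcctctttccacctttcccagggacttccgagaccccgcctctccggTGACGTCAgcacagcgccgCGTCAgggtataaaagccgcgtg
Ddit3: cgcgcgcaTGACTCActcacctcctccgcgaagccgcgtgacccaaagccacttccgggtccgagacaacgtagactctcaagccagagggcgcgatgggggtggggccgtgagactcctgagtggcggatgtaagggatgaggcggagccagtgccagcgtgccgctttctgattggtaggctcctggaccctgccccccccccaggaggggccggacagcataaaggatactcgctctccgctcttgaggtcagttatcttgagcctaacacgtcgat

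The CARE core was found in the windows of Atf3, 110 bases before the start, and of Trib3, at position 15 after the start. The same core was present in the windows of 4.51% of the 27025 genes with a window, and of 2.73% of the 9373 such genes at or above 1 CPM. A full CRE was found in Ppp1r15a only among the 10 genes, 12 bases before the start, against 2.03% of all genes and 3.83% of those at or above 1 CPM. The AP-1 element was found in Ddit3 only, 242 bases before the start, against 8.97% of all genes and 5.69% of those at or above 1 CPM. These matches describe letters in a window and are not binding sites, and the absence of a match says only that the letters were not in this window.

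The short CRE core was more widely shared among the 10 genes. It occurred in Atf4, Atf3, Trib3, Cebpb and Ppp1r15a, 5 of the 10, against 23.0% of all genes and 36.5% of genes at or above 1 CPM. Each of the 5 had a copy within 12 bases before the start, at 12 bases in Atf4 and Ppp1r15a, 10 in Trib3 and 7 in both Atf3 and Cebpb, and the match of Ppp1r15a is contained in its full CRE. Copies this close occurred in 2.21% of all genes and 4.46% of those at or above 1 CPM, but the distance was set from these 5 genes after it had been seen. Further copies lay 237 bases before the start in Trib3, 180 and 53 before it in Cebpb, and after it in Atf4 (position 41) and Ppp1r15a (position 8). The match 9 bases before the start in Ppp1r15a is the same full CRE read on the other strand. A CCAAT box (CCAAT) was found in 7 genes (Atf4, Atf3, Atf5, Cebpg, Ddit3, Ddit4 and Sesn2) against 41.1% of all genes and 43.6% of those at or above 1 CPM. The match of Atf5 lay in its other window, and with first windows only a CCAAT box was found in 6 of the 10 genes. Atf3 and Atf4 had both a short CRE core and a CCAAT box.

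**Figure D1:**
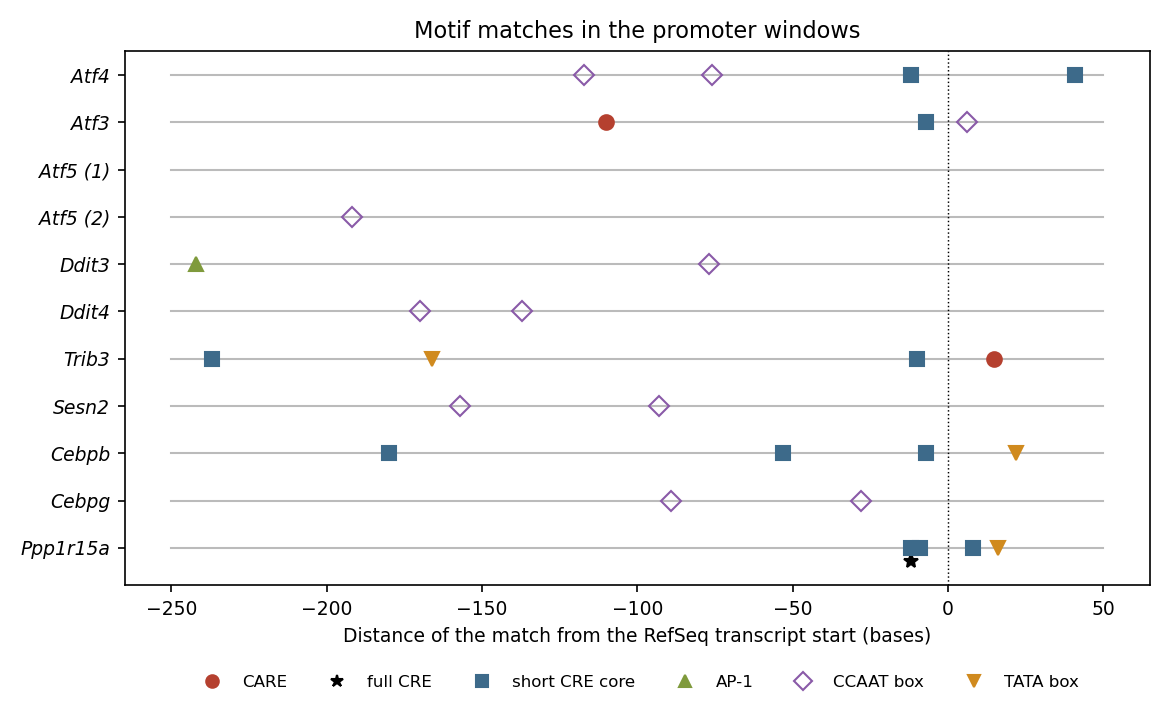
Positions of motif matches in the 11 RefSeq promoter windows of the 10 genes, with the distance from the transcript start in bases on the horizontal axis and 1 line per window (Atf5 has 2). Symbols mark the motif, and the dotted line marks the start. A short CRE core lies within 12 bases before the start in Atf4, Atf3, Trib3, Cebpb and Ppp1r15a, and the CARE is seen in Atf3 and Trib3.

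The other motifs searched, on both strands, gave smaller groups. An antioxidant element (TGACNNNGC) was found in Cebpb, Ppp1r15a and Sesn2, against 14.0% of all genes and 17.0% of those at or above 1 CPM. In Cebpb and Ppp1r15a its match overlaps a short CRE core given above. The hypoxia core (ACGTG) was found in Ddit3, Ddit4 and Ppp1r15a, against 21.8% and 30.1%, and a TATA box (TATAAA) in Cebpb, Ppp1r15a and Trib3, against 15.7% and 8.34%. The TATA box match lay 166 bases before the start in Trib3 and after it in Cebpb (position 22) and Ppp1r15a (position 16). No window of the 10 genes held an E-box (CACGTG), which 8.09% of all genes and 12.1% of those at or above 1 CPM had. The windows of the 10 genes had a median GC content of 64.7%, compared with 52.7% over all windows and 61% over those of genes at or above 1 CPM. With 80.7%, the window of Cebpb was the richest in GC of the 11, and these shares of other genes were not matched for GC content.

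All 10 genes had reads, and all 10 lay above 1 CPM, whereas 77.8% of all rows had reads and 43.7% were at or above 1 CPM. Their levels ran from 360 CPM (Atf4) to 8.23 CPM (Cebpb), 43.8 times apart, with a median of 119 CPM. The median percentile of the 10 genes among all rows was 92.5, and 6 of them belonged to the upper 10% of rows. Among rows at or above 1 CPM the median log2 level was 4.98, and 9 of the 10 genes lay above it, all but Cebpb.

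**Figure D2:**
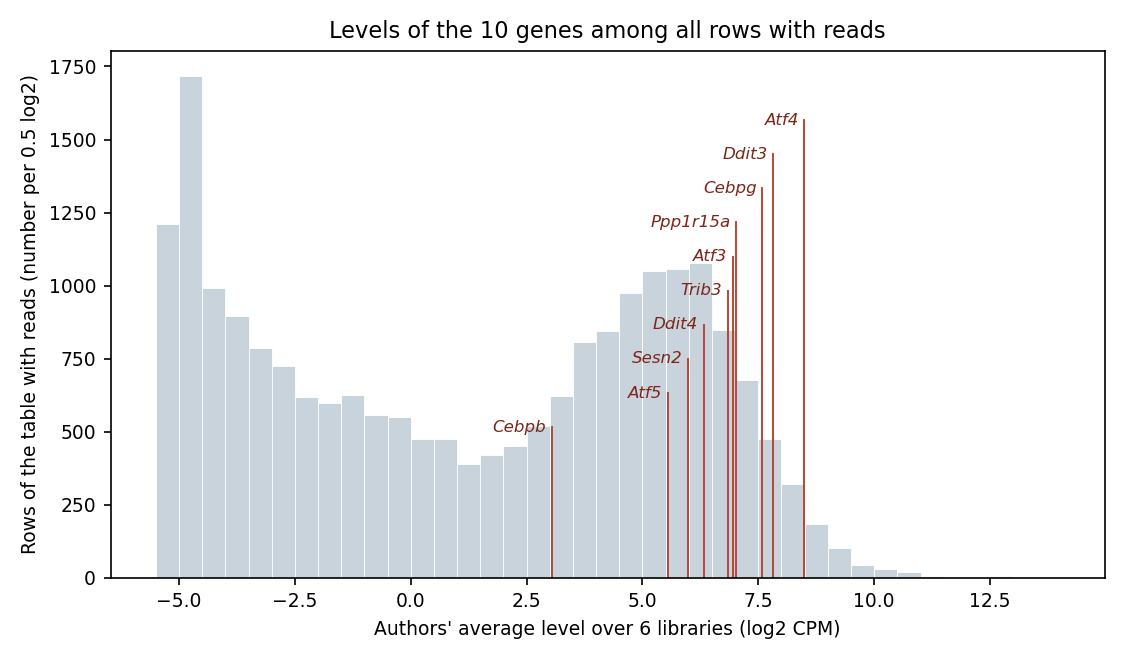
Levels of the 10 genes (red lines, with names) over the distribution of the rows with reads (grey bars, number of rows per 0.5 log2 CPM). The horizontal axis is the authors' average over 6 libraries in log2 CPM, the height of the red lines only separates the names, and 9 genes sit in the right-hand peak or beyond it whereas Cebpb, at 3.04, lies on its left slope.

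Atf4, which encodes the central transcription factor of the response, had the highest CPM of the 10 genes. Its level was 8.49 log2 CPM, or 360 CPM and 7080 reads per library, which placed it at rank 401 from the top of the table. The gene lies at chr15:80255184-80257541 on the plus strand of GRCm38. Per kilobase of annotated exon its level was 153 CPM. Atf5, a related factor that is also controlled by reading frames in its leader, was at 5.54 log2 CPM (46.6 CPM, percentile 82.5). Per kilobase of exon Atf4 exceeded Atf5 6.54 times, and 6.28 times per kilobase of coding sequence.

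Ddit3 encodes CHOP, a C/EBP relative that pairs with other bZIP proteins and is known for its role in stress-induced death. It was at 7.82 log2 CPM (226 CPM, rank 853). Per kilobase of exon the levels of Atf4 and Ddit3 were 153 and 132 CPM, a ratio of 1.16, and when the longest transcript or the coding sequence was taken as the length, Ddit3 stood before Atf4. The order of these 2 genes therefore depended on the length used. Ddit3 lies at chr10:127290774-127296288 on the plus strand. Its exons share 105 bp with another Ensembl entry of the same name and strand, or 6.13% of its exonic bases, and 68 bp with Mars on the opposite strand.

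Atf3, a bZIP factor that is rapidly induced by many stresses, stood at 6.95 log2 CPM (123 CPM, 57.3 CPM per kilobase of exon). It lies at chr1:191170296-191218039 on the minus strand, the longest span of the 10 genes. Its promoter window lies inside this span, so the window does not cover the outermost annotated start. Jdp2, its nearest relative, was at 27.7 CPM, and per kilobase Atf3 exceeded it 4.44 times (3.69 times with the longest transcript).

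The levels of the C/EBP genes Cebpg and Cebpb lay far apart in CPM. Cebpg, a C/EBP protein without a transactivating region of its own that pairs with ATF4, had 7.59 log2 CPM (192 CPM), whereas Cebpb, a factor of inflammation and differentiation, had 3.04 log2 CPM (8.23 CPM, 161 reads per library). Because most of the longest Cebpg transcript is an untranslated tail, its place moved most with the length used, from the seventh of the 10 per kilobase of exon (34.2 CPM) to the second per kilobase of coding sequence. Cebpb was the lowest of the 10 under every length, and was 3.35 times below the next gene, Sesn2, per kilobase of exon. Cebpg exceeded Cebpb 6.25 times per kilobase of exon and 46.1 times per kilobase of coding sequence. Of the exonic bases of Cebpb, 20.7% (312 bp) overlap Tmem189, a gene on the opposite strand with a level of 6.26 log2 CPM, and the strand setting of the counting is not given in the sources used here.

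Among the other C/EBP genes, Cebpd was at 0.555 CPM and Cebpa and Cebpe at 0.0842 and 0.0456 CPM, both of which rested on fewer than 3 reads per library. Per kilobase of exon, Cebpb exceeded Cebpd 37.0 times and Ddit3 exceeded Cebpb 24.1 times, so that Ddit3 and Cebpg had the highest levels of the 6 C/EBP genes measured. With the coding sequence as length these ratios were 13.4 and 48.3.

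Ppp1r15a was at 7.03 log2 CPM (130 CPM, 44.4 CPM per kilobase of exon). GADD34, its product, is the inducible partner of protein phosphatase 1, and Ppp1r15b encodes the constitutive one. Ppp1r15b, with 522 CPM, stood at 93.2 CPM per kilobase of exon and exceeded Ppp1r15a 2.01 times with the longest transcript and 3.77 times with the coding sequence as length. The catalytic subunits of the phosphatase, Ppp1ca, Ppp1cb and Ppp1cc, lay between 43.2 and 96.0 CPM per kilobase of exon.

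Trib3 encodes a pseudokinase that binds ATF4 and AKT. Its level was 6.84 log2 CPM (115 CPM, 54.1 CPM per kilobase of exon), next to Atf3 in both orders. The other tribbles genes were at 3.22 log2 CPM (Trib1) and 1.84 log2 CPM (Trib2), and per kilobase of exon Trib3 exceeded Trib1 36.4 times and Trib2 65.6 times. With the coding sequence as length these ratios were 13.0 and 31.1.

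Ddit4 and Sesn2 both restrain the growth kinase mTORC1, Ddit4 through the TSC complex and Sesn2 as a leucine sensor. Ddit4 stood at 6.32 log2 CPM (80.1 CPM) and Sesn2 at 5.99 log2 CPM (63.7 CPM). Per kilobase of exon the values were 45.7 and 18.3 CPM. Ddit4 exceeded its relative Ddit4l (2.79 CPM) 47.7 times per kilobase of exon and 24.2 times per kilobase of coding sequence. Sesn2 exceeded Sesn1 4.38 times and Sesn3 5.64 times per kilobase of exon. The ratio to Sesn3 was 1.32 with the coding sequence as length, so its size depended on the length used.

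**Figure D3:**
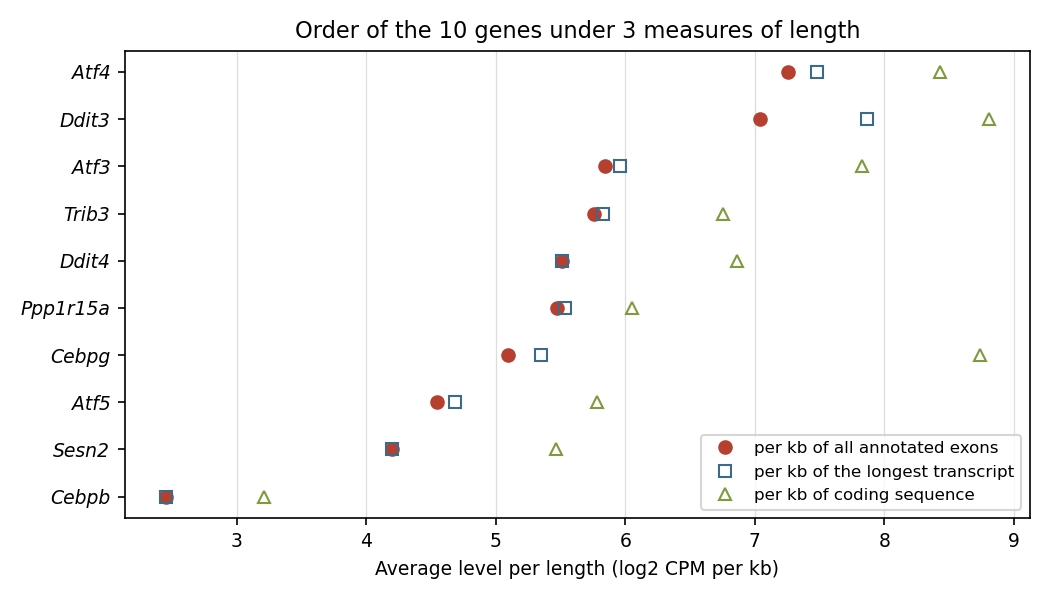
Average level of each of the 10 genes per kilobase of length, in log2 CPM per kb on the horizontal axis, with all annotated exons (red circles), the longest transcript (blue squares) or the coding sequence (green triangles) as the length. Genes are in the order of the red circles, Cebpb is lowest under every length, Ddit3 passes Atf4 when either other length is used, and Cebpg moves furthest.

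Per kilobase of exon, Atf4 and Ddit3 stood above 130 CPM, 2.30 times or more over the next gene. The next 7 genes, from Atf3 at 57.3 CPM to Sesn2 at 18.3 CPM, followed each other at ratios between 1.03 (Ddit4 over Ppp1r15a) and 1.46 (Cebpg over Atf5), and Cebpb stood apart at 5.47 CPM. This grouping did not hold with the coding sequence as length, where Cebpg (8.74 log2 CPM per kb) stood between Ddit3 (8.81) and Atf4 (8.43) and Atf3 followed at 7.83, although Cebpb, at 3.21, remained the lowest.

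The genes upstream of ATF4 were all expressed. Of 20 genes for eIF2 kinases, eIF2, its exchange factor eIF2B, its phosphatase and factors linked to them (Dele1, Impact, Nck1 and Eif2a), 20 were at or above 1 CPM, with a median of 4.77 log2 CPM per kilobase of exon against 5.49 for the 10 genes and -1.79 over all rows with an exon length. Per kilobase of exon the kinases lay between the levels of Cebpb and Atf5, at 16.3 CPM per kb for Eif2ak1 (HRI, the haem-regulated kinase), 19.5 for Eif2ak2 (PKR, which senses double-stranded RNA), 11.0 for Eif2ak3 (PERK, of the endoplasmic reticulum) and 7.40 for Eif2ak4 (GCN2, which senses uncharged tRNA). With the coding sequence as length, Eif2ak2 passed Atf5 (6.01 against 5.78 log2 CPM per kb). In CPM, the highest of the list were Eif2s2 and Ppp1r15b, with 522 CPM each, and Ppp1cb at 8.88 log2 CPM. The lowest in CPM were Eif2b4 (26.1 CPM), Dele1 (31.5 CPM), which relays mitochondrial stress to HRI, and Nck1 (37.4 CPM).

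Of 34 other known targets of ATF4, 30 were at or above 1 CPM, and their median level was 4.96 log2 CPM per kilobase of exon, against 5.49 for the 10 genes. In CPM this order was the other way round, with medians of 7.33 and 6.90 on the log2 scale. The highest in CPM were Slc38a2, an amino acid transporter (1385 CPM), Ero1a, an oxidase of the endoplasmic reticulum (891 CPM), and Gars, the glycyl-tRNA synthetase (823 CPM). The secreted factors Stc2, Fgf21 and Gdf15 were the lowest, at -4.77, -2.47 and -0.79 log2 CPM. These 3 and the death receptor Tnfrsf10b (-0.25 log2 CPM) were the 4 targets under 1 CPM. Asns, which makes asparagine, was at 125 CPM per kilobase of exon, a value between those of Ddit3 and Atf3, and Slc7a11 (26.8) and Chac1 (20.8) lay between Sesn2 and Cebpg. The place of Asns and Slc7a11 turned with the length. Per kilobase of coding sequence Asns (7.67 log2 CPM per kb) lay below Atf3 (7.83) and Slc7a11 (7.96) above it, and in CPM Slc7a11 (374) stood above Atf4 (360).

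**Figure D4:**
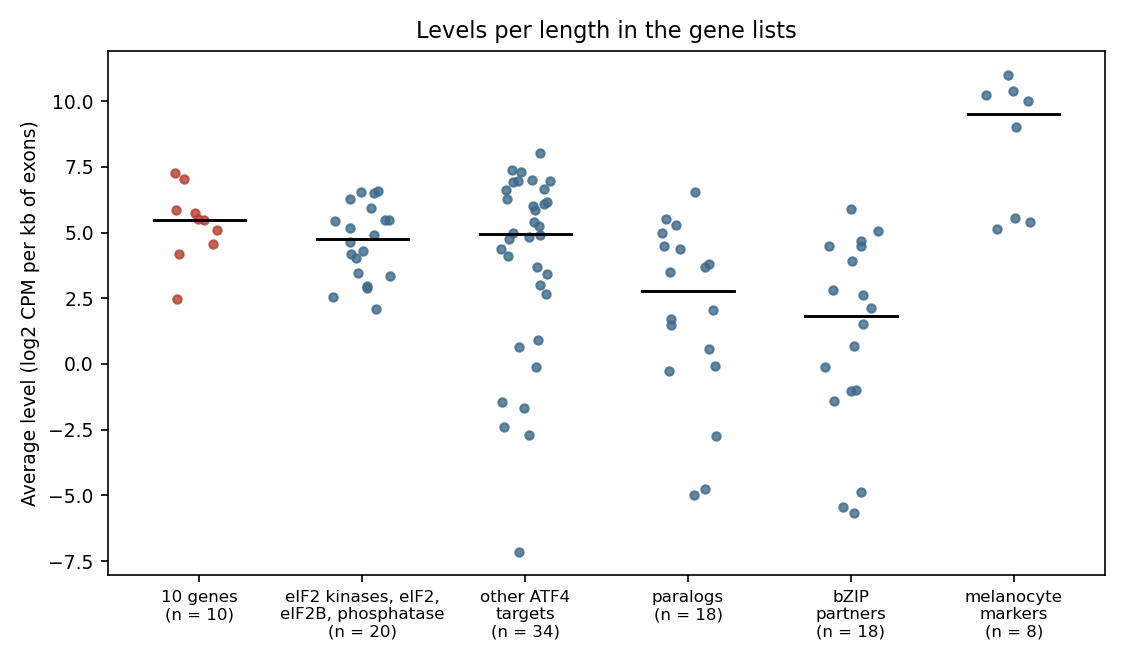
Average level per kilobase of annotated exon (log2 CPM per kb, vertical axis) of every gene in 6 lists, with 1 point per gene and a bar at each list's median. The bars stand at 5.49 for the 10 genes, 4.77 for the upstream genes, 4.96 for other ATF4 targets, 2.78 for paralogs, 1.83 for bZIP partners and 9.51 for melanocyte markers.

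Other bZIP factors, which can pair with the factors described here, had a median of 1.83 log2 CPM per kilobase of exon, and 14 of 18 such partners were at or above 1 CPM. The highest in CPM were Atf6, the membrane-bound sensor of the endoplasmic reticulum (207 CPM), Jun (188 CPM) and Xbp1, the target of IRE1 splicing (84.0 CPM), and the lowest were Fosl1, Batf and Batf2, at -4.64, -4.38 and -4.12 log2 CPM. The 18 paralogs of the 10 genes had a median of 2.78 log2 CPM per kilobase of exon, and 15 were at or above 1 CPM. Among the ATF, CREB and NFE2L relatives, Nfe2l1 (45.7 CPM per kb), Nfe2l2 (39.4), Atf1 (31.9), Atf6 (22.4) and Atf2 (20.8) lay between the levels of Sesn2 and Atf3 per kilobase of exon, of the longest transcript and of coding sequence. Atf6b (11.3) lay below Sesn2 with each of these lengths. Creb1 (13.8) lay below Sesn2 and Atf7 (2.77) below Cebpb per kilobase of exon, but per kilobase of coding sequence Creb1 was above Sesn2 (7.53 against 5.47 log2 CPM per kb) and Atf7 above Cebpb (4.39 against 3.21).

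The labelled cell type was checked with markers. All 8 melanocyte lineage genes were at or above 1 CPM, with Dct, Gpnmb and Tyrp1 the highest (12.8, 12.7 and 12.5 log2 CPM) and Tyr, Mitf and Sox10 the lowest of them (8.23, 8.17 and 6.76). No keratinocyte marker reached 1 CPM, Krt5 had no reads, and Krt14 and Krt1 had fewer than 3 reads per library. Of the fibroblast markers, Col1a1 was at 1.70 CPM, Col1a2 at 1.15 CPM and Dcn at 0.308 CPM, and of the endothelial markers Pecam1 was at 1.21 CPM and Cdh5 at 0.101 CPM. The haematopoietic marker Ptprc and the T cell marker Cd3e were under 1 CPM, whereas the lysosomal gene Cd68, used here as a macrophage marker, was at 5.47 CPM.

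In GRCm38 the 10 genes lie on 6 chromosomes. Chromosome 7 holds 3 of them, all on the minus strand, with Atf5 (chr7:44812256-44816658) and Ppp1r15a (chr7:45522916-45526268) 0.706 Mb apart and Cebpg (chr7:35046422-35056573) 9.76 Mb from Atf5. Trib3 (chr2:152337422-152344032, minus strand) and Cebpb (chr2:167688915-167690418, plus strand) are 15.3 Mb apart, and Ddit4 (chr10:59949669-59951834, minus strand) lies 67.3 Mb from Ddit3. Sesn2 is at chr4:132492032-132510501 on the minus strand and has up to 10 exons, whereas Cebpb has 1. Exons of 5 of the 10 genes overlap those of another gene. Besides Ddit3 and Cebpb, these are Atf5, with 82 bp (4.11%) shared with Nup62 (6.16 log2 CPM) and Il4i1 (-1.54) on the opposite strand, Cebpg, with 73 bp shared with Gm44836 on its own strand, and Ppp1r15a with 12 bp (0.409%) shared with Tulp2 (1.15 log2 CPM) on the opposite strand. How reads in shared bases were counted is not given in the sources used here.

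Translational control of the response acts through upstream start codons, so the annotated transcripts of the 10 genes were searched for ATG in their leaders. For each gene the principal coding transcript of GENCODE M21 was used. At least 1 upstream ATG was found in 7 of the 10 genes, against 52.7% of 11023 coding genes at or above 1 CPM and 54.3% of 20007 coding genes in all. A reading frame that starts in the leader and overlaps the main coding sequence was found in Atf4, Atf5 and Ppp1r15a, 3 of the 10, against 16.8% of coding genes at or above 1 CPM. The median leader of the 10 genes was 273 nt long, compared with 183 nt for those genes. A longer leader can hold more ATGs, and these shares were not matched for leader length.

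Atf4 had a leader of 594 nt with 3 upstream ATGs, of which 2 opened frames that close before the main start and the last, at position 498, opened the overlapping frame. Atf5 had 2 upstream ATGs in a leader of 373 nt, 1 closed and 1 overlapping, and another principal transcript with a leader of 293 nt had 6. Ppp1r15a had the longest leader, of 764 nt, with 7 upstream ATGs and 1 overlapping frame, but its other principal transcript, with a leader of 283 nt, had 3 and none that overlapped. Ddit3 had 2, at positions 56 and 65 of a leader of 186 nt, both of closed frames. Atf3, Sesn2 and Cebpg had 1 each, all closed, but another principal transcript of Cebpg with a leader of 392 nt had 4. Ddit4, Trib3 and Cebpb had none.

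**Figure D5:**
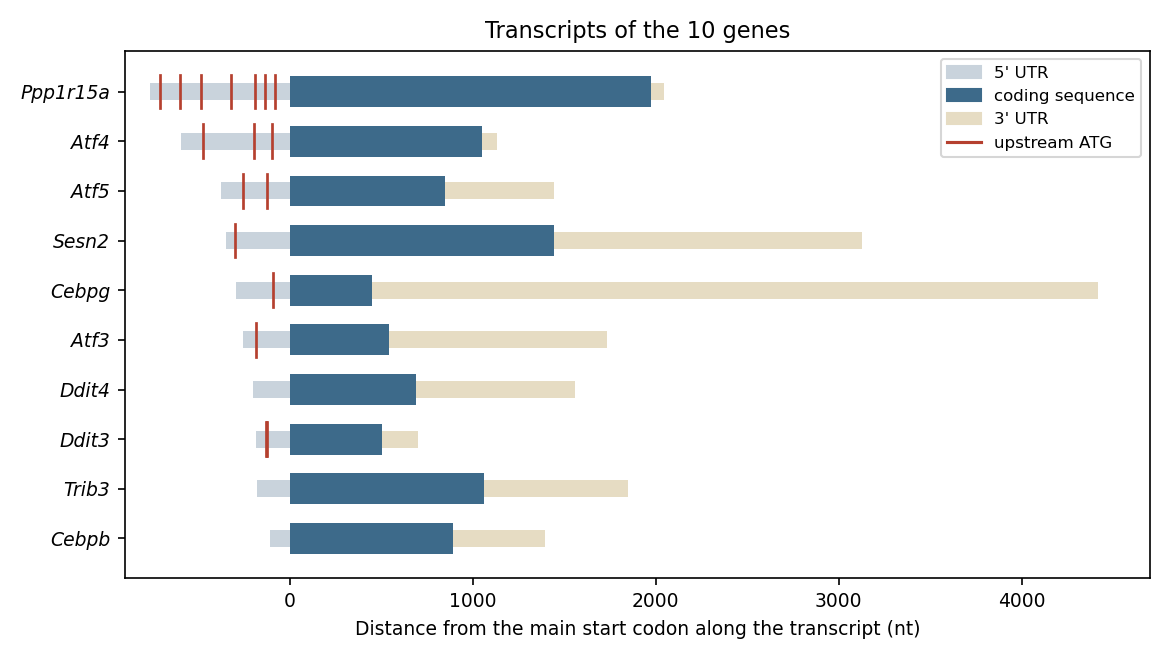
Principal transcripts of the 10 genes drawn to scale and aligned at the main start codon, with distance along the transcript in nt on the horizontal axis. Light blue marks the leader (5' UTR), dark blue the coding sequence, beige the 3' UTR and red lines the upstream ATGs, of which Ppp1r15a has 7, Atf4 3 and Ddit4, Trib3 and Cebpb none.

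The Cebpg transcript used here had a 3' UTR of 3962 nt after a coding sequence of 453 nt, and its other principal transcript had one of 69 nt without ATTTA. The 3' UTRs of Ppp1r15a and Atf4 were 71 and 81 nt long. The pentamer ATTTA, a part of elements known to shorten mRNA life, occurred 10 times in Cebpg, 4 times in the short 3' UTR of Ppp1r15a, 3 times in Atf3 and 1 time each in Sesn2 and Atf5, and was absent from Atf4, Ddit3, Ddit4, Trib3 and Cebpb. At least 2 copies were found in 3 of the 10 genes (30%), against 49.0% of coding genes at or above 1 CPM, whose median 3' UTR was longer (1056 nt against 688 nt).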

How the data were processed

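RNA of B16F10 cells treated for 6 h with 0.01% OLO (3 samples) or 0.01% OZO (3 samples) was prepared with the NEBNext Ultra II Directional kit and sequenced. Per the labels and the methods of the study, the authors aligned reads to mm10 with HISAT2 (2.1.0), estimated transcripts with StringTie (1.3.4d), counted genes with featureCounts (2.1.1) and used limma-voom (3.58.1). The values used here are the authors' deposited log2 averages, in CPM with 0.5 reads added to each count, over all 6 libraries, a unit inferred from the column's name, the methods and the shared lowest value, on which library size and reads per library rest. Scaling method and strand setting are not given in the sources used here. No filter is named in them either, and 6025 rows with no reads were kept. The same table holds 5 columns of the authors' own comparison of the oils (fold change, test statistic, p-values and log odds), which were not used, and no library was analysed on its own, so the planned tests of OZO against OLO could not be run.

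Rows were matched by symbol. The library size was computed from the level shared by the 6025 rows with no reads, which is the lowest level, -5.30. Levels were converted to CPM and divided by the length of all exons of GENCODE M21 (GRCm38, found for 25294 rows), and percentiles were taken over 27179 rows. The rows carry Entrez gene identifiers, so the exons counted by the authors may differ from those of GENCODE. Depths of single libraries are not known, and reads per library are geometric means that limit precision by counting error only. Motifs were searched on both strands of RefSeq promoter windows, and upstream ATGs in the principal transcript with the best annotation. The 10 genes and all lists were chosen with earlier results of these data known. From each pathway list, the 3 highest and 3 lowest genes with reads were named, with every paralog, and from the marker lists likewise. Other genes were named after their values were seen. Library size was tested on simulated data of 27179 genes, made with the same formula that the calculation inverts. Motif search was tested on 200 random windows with exact planted motifs, of which 100% were found. These tests check the code only. Python 3.11.15, numpy 2.4.6, pandas 2.3.3 and matplotlib 3.10.9 were used.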

Additional observations from a re-analysis of the deposited data

How the results depend on the processing

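The median percentile of the 10 genes was 92.5 over all rows, 90.3 over rows with reads and 92.1 over rows with a symbol. The lowest percentile of a single gene was 57.0, for Cebpb over rows with reads. The median level per kilobase was 5.49 log2 CPM with all exons, 5.53 with the longest transcript and 6.81 with the coding sequence as length, and 6.90 log2 CPM with no correction for length. Of the 10 genes, 6 kept their place in the order with the longest transcript, 4 with the coding sequence and 3 with no correction. The number of genes with a CRE rose from 1 to 5 when the short core was searched in place of the full element. A CARE was found in 2 genes with either form. This says little, since the forms differ only by a last letter that any base matches. With the transcript of the longest leader, a choice added after seeing the data, 7 of the 10 genes again had an upstream ATG, against 59.4% of coding genes at or above 1 CPM. No paired analysis was possible because the averages used here do not separate the libraries. Another normalization, another filter, other pseudocounts and leaving out each library in turn were therefore not run. Coding lengths came from GENCODE, since a protein table was not used here.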
